A study of Mus musculus with 20 samples.

Results

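Gene expression after 12 h in AICAR was compared with expression after 4 h in AICAR in SV40-immortalized murine embryonic fibroblasts that carry a double knockout of Ampkα1 and Ampkα2. The members were the 3 arrays labelled 12 h and the 3 arrays labelled 4 h, chosen by their titles, out of 20 arrays in 7 groups. All 28898 probe sets with a single gene symbol, of 45141 on the array, were considered. Both groups had received 1 mM AICAR and shared the genotype, the immortalization and culture at low density. Other arrays used below were 3 controls at 0 h with no AICAR, and in 1 mM AICAR 3 arrays each at 1, 2 and 24 h and 2 at 8 h. No arrays without AICAR at 4 or 12 h were analysed here, so the time in AICAR and the time in culture cannot be told apart. Whether the replicates of a time are separate cultures is not in the labels. The p-values thus describe the spread among these arrays only, and that spread may be technical.

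AICAR is an adenosine analog that enters cells through nucleoside transporters and is phosphorylated by adenosine kinase to ZMP, which mimics AMP. ZMP activates AMPK, the kinase that senses low cellular energy, whose catalytic subunits are encoded by Prkaa1 (Ampkα1) and Prkaa2 (Ampkα2), and it also binds other AMP-regulated enzymes of purine and sugar metabolism. Messenger RNAs of transcription regulators, signalling feedback genes and splicing regulators are often short-lived, so their levels can fall and return within hours, whereas those of ribosomal proteins and most metabolic enzymes are stable.

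Of 12 fibroblast markers, 10 had a mean above the background level of 5.08 at 1 or both times. This is the log2 signal under which 95% of 23 control probe sets with no specific target lay. Col1a2 and Thy1 stayed below it. The summed linear signal of the fibroblast markers lay between 18537 and 20127 at 12 h and between 19068 and 19817 at 4 h. It was mostly that of Vim, S100a4 and Fn1, with log2 means of 13.25, 12.33 and 11.58 at 12 h. The spread of signals within an array was wider in 2 arrays at 12 h: the interquartile range was 3.20, 3.20 and 2.84 on the log2 scale in 12 h replicates 1, 2 and 3, against 3.01, 2.77 and 2.89 in 4 h replicates 1, 2 and 3. Array medians lay between 5.17 and 5.26 at 12 h and between 5.20 and 5.31 at 4 h. The part of this difference in spread in the results below was not tested. The arrays of lowest interquartile range at each time, named below, were 12 h replicate 3 and 4 h replicate 2. Of other cell types, 6 of 8 endothelial, 3 of 6 adipocyte and 1 of 8 muscle markers were below background at both times. A signal above background thus does not by itself mark a cell type. In whole-culture RNA, fewer cells expressing a gene and less RNA per cell cannot be told apart.

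The 2 genes with the largest rises and the 2 with the largest falls that had an entry in the promoter table are shown by their promoters, because they carry the opposite ends of the comparison. The sequences are RefSeq's for GRCm38.p6, 250 bases before to 50 bases after the start, 5′ to 3′ on the strand of the gene, with each CCAAT (or ATTGG, its reverse complement) in capitals, overlapping matches included.
Pxylp1 (chr9:96889425-96889724, minus strand): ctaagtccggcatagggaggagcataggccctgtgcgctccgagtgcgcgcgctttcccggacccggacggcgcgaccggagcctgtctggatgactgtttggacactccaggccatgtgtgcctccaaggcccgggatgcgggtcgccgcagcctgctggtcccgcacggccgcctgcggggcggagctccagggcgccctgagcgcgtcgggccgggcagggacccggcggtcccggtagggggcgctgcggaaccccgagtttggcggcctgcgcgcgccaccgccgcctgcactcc
Nabp1 (chr1:51478350-51478649, minus strand): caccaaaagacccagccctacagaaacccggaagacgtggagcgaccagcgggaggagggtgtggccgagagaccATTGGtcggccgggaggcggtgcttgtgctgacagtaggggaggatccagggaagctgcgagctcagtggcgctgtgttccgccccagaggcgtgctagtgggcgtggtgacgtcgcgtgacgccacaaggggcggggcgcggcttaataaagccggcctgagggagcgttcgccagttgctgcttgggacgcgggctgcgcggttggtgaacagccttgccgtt
Rbm14 (chr19:4811585-4811884, minus strand): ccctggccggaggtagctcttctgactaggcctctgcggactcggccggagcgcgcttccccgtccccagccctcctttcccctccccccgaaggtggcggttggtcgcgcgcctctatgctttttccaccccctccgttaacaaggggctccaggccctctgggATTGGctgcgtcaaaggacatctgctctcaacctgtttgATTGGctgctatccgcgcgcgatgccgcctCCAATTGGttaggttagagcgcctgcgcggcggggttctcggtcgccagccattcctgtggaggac
Rbm4 (chr19:4793960-4794259, minus strand): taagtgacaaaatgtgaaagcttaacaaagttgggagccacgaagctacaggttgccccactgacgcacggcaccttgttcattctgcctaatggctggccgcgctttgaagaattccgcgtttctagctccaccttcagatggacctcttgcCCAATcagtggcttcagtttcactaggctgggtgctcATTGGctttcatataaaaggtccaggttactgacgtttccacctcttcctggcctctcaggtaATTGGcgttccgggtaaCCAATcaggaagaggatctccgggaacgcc
The Rbm14 and Rbm4 windows held 4 matches each, the Nabp1 window held 1 and the Pxylp1 window held 0. Rbm14 and Rbm4 are neighbours on chromosome 19, and Rbm4 has 2 starts in the table, of which the first is shown. Over the promoters of that length, CCAAT on either strand was in 37.9% of all 27025, in 38.4% of the 10401 of genes tested, in 37.2% of those of genes higher at 12 h and in 40.3% of those of genes lower at 12 h. It was in 12 of the 18 promoters of genes at least 2-fold lower and in 42 of the 116 of genes at least 2-fold higher. A match is a description of these letters and not a site of binding.

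Expression differed between 12 h and 4 h for 3567 of 12944 genes tested, 27.6% of them (limma, adjusted p under 0.05). Of these genes, 2374 were higher at 12 h (18.3%) and 1193 were lower (9.22%). At least a 2-fold difference was passed by 141 higher genes (1.09%) and 23 lower genes (0.178%). The 3 arrays at 12 h did not overlap the 3 at 4 h for 4771 genes (36.9%). The split depended on the scaling: 2211 genes were higher and 1724 lower when the fit took the interquartile range of the arrays as a covariate, and 2419 higher and 744 lower after median centring. With genes ranked by mean signal into 5 bins of equal size, 31.1% of the genes in the middle bin were higher, against 5.79% in the dimmest bin and 12.6% in the brightest, and the bin medians ran between -0.09 and 0.14 on the log2 scale. The median difference over all genes tested was -0.02.

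Pxylp1, a phosphatase that acts on the phosphorylated xylose of proteoglycan linkers, had the largest rise. Its log2 signal was 7.99, 7.84 and 7.06 at 12 h, against 5.56, 4.90 and 4.87 at 4 h. The groups did not overlap, and the mean was 2.52 ± 0.29 (SE) higher at 12 h (limma adjusted p = 6.32e-06), a 5.74-fold difference. The only Pxylp1 probe set is of a class (x) that can bind related transcripts. Its 4 h mean of 5.11 was near the background level of 5.08, so the fold is uncertain. Afap1l2, an adaptor of Src signalling, stood at 9.73, 9.48 and 9.13 at 12 h, against 7.55, 7.56 and 7.47 at 4 h. Hsd3b7, an enzyme of bile acid synthesis that acts on oxysterol products, had 8.67, 8.38 and 8.43 at 12 h, against 6.52, 6.85 and 6.70 at 4 h. Both genes were higher in each array at 12 h, by 1.92 ± 0.14 and 1.80 ± 0.10 (SE; limma adjusted p = 1e-07 and 4.01e-09). Without _x_ or _s_ probe sets, which can bind several transcripts, Afap1l2 rose by 1.26. Hsd3b7 had the same mean, 6.69, at 0 h and at 4 h. Ampd3, an AMP deaminase that converts AMP to IMP, rose by 1.65 ± 0.16 (SE). Its arrays read 7.56, 7.58 and 7.09 at 12 h, against 5.81, 5.64 and 5.84 at 4 h. Ampd2, another AMP deaminase gene, fell by 0.50 ± 0.06 (SE; limma adjusted p = 1.03e-05).

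The 15 largest rises with separate groups also held Nabp1 (2.03 on the log2 scale), the interferon-induced apolipoprotein L gene Apol9a (1.81), the NEDD8 protease gene Senp8 (1.76), the calcium-response factor gene Carf (1.75), Znrd1as (1.73), the keratan sulfate sulfotransferase gene Chst1 (1.66) and the methyltransferase-like gene Mettl7a1 (1.66). The list closed with the TNF receptor-associated factor gene Traf1 (1.65), the transcription-coupled repair gene Uvssa (1.61), the Wnt signalling gene Dixdc1 (1.58) and the NADPH oxidase gene Nox4. The Nox4 mean of 4.90 at 4 h was below the background level, so its 12 h mean of 6.40 is at least 2.49-fold higher. The Senp8 mean at 4 h, 5.11, was near that level. In 13 of the 15 genes, 12 h replicate 3 lay nearest to the 4 h arrays among the 12 h arrays. Among the 15 largest falls with separate groups, described below, this was so in 2. With the probe sets of each gene averaged in place of the brightest, Dixdc1 rose by 0.33, Uvssa by 0.83, Traf1 by 0.96, Carf by 1.00, Mettl7a1 by 1.05 and Senp8 by 1.09, each still past the test.

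**Figure D1:**
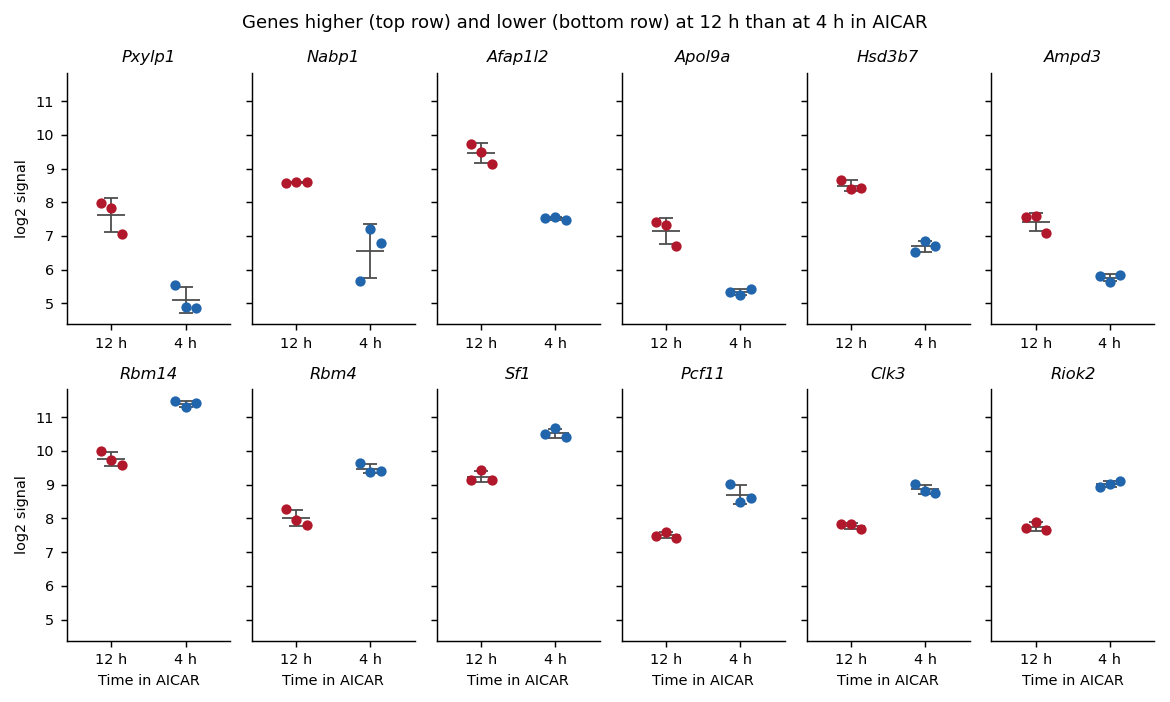
Log2 signal of 12 genes in each array at 12 h (red, left) and 4 h (blue, right) in AICAR; bars are the mean and SD of 3 arrays. In every panel the 12 h arrays lie wholly above (top row) or wholly below (bottom row) the 4 h arrays.

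The largest falls were those of Rbm14 and Rbm4. Rbm14, a paraspeckle protein and coactivator, had a log2 signal of 9.99, 9.73 and 9.58 at 12 h, against 11.47, 11.29 and 11.41 at 4 h. Rbm4, a splicing and translation regulator encoded next to it, had 8.27, 7.95 and 7.82 at 12 h, against 9.63, 9.37 and 9.42 at 4 h. All arrays at 12 h were lower, and the means fell by 1.63 ± 0.11 and by 1.46 ± 0.12 (SE; limma adjusted p = 4.27e-08 and 3.45e-07), with the probe set for Rbm14 also of the x class. Sf1, which recognises the branch point in early spliceosome assembly, fell by 1.29 ± 0.09 and Pcf11, a factor of cleavage and transcription termination, by 1.20 ± 0.13 (SE). Sf1 stood at 9.15, 9.43 and 9.15 at 12 h, against 10.51, 10.67 and 10.41 at 4 h, and Pcf11 at 7.48, 7.60 and 7.42 at 12 h, against 9.01, 8.47 and 8.61 at 4 h. Clk3, a kinase of splicing factors, fell by 1.07 and Dgcr8, the RNA-binding partner of Drosha in microRNA maturation, by 1.06 (0.63 with its probe sets averaged).

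Other large falls were in Riok2 (1.26 lower), a kinase of small-subunit maturation, and in Scaf8 (1.14 lower), whose protein binds RNA polymerase II. Taf1d, a snoRNA host gene that encodes a subunit of the RNA polymerase I factor SL1, was 1.14 lower. H2bc4, a histone H2B gene, fell by 1.27, the centrosomal gene Cep43 and the serum response factor-binding gene Srfbp1 by 1.08 each, and Nepro and the cytokine signalling inhibitor Socs2 by 1.06 each. With its probe sets averaged Taf1d fell by 0.75. Nepro was -0.29 and did not pass with that mean, and its second probe set rose by 0.49 (limma adjusted p = 0.00356, each probe set on its own). Socs2 was -0.58 with that mean and -0.69 without 12 h replicate 3. The probe set for Rps15a (-1.29) had means of 5.27 at 12 h and 6.56 at 4 h, and ribosomal protein genes have many near-identical copies, so this value is uncertain. Rps15a is not in the list of ribosomal protein genes described below.

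The largest rises and falls were then followed on arrays that neither group shares, those at 8 h and 2 h. All 15 rises had a higher mean at 8 h than at 2 h and 10 passed that test upwards. Of the 15 falls, 14 had a lower mean at 8 h than at 2 h and 9 passed downwards. The exception was Rbm4, at 0.09 with no call. Over all genes higher at 12 h against 4 h, 87.2% had a higher mean at 8 h than at 2 h, 641 passed that test upwards (27%) and 3 downwards (0.126%). Among genes lower at 12 h, 25.2% had a higher mean at 8 h, 215 passed downwards (18%) and 16 upwards (1.34%). The share of all genes with a higher mean at 8 h was 53.2%, and 7.54% of all genes passed upwards and 2.49% downwards between 8 h and 2 h. Only 156 genes differed between 12 h and 8 h (1.21%), against 1506 between 8 h and 4 h (11.6%), with 2 arrays at 8 h in both comparisons.

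**Figure D2:**
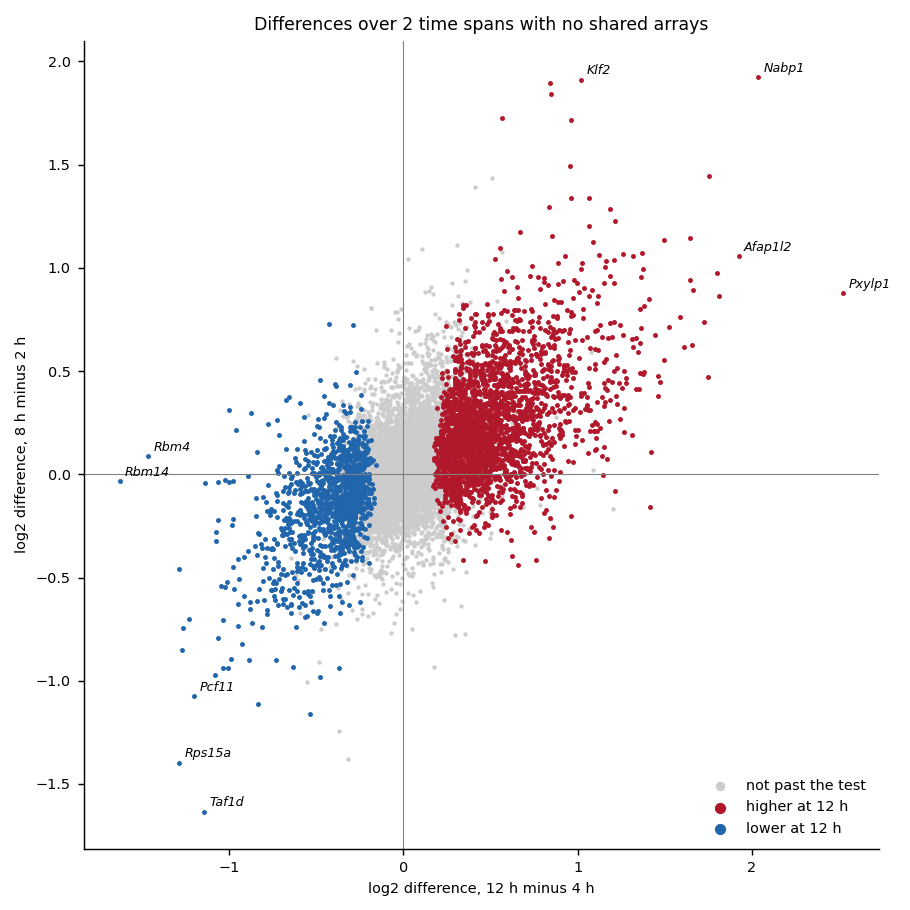
Each point is a gene; the horizontal axis gives the log2 difference of 12 h minus 4 h and the vertical axis that of 8 h minus 2 h, on separate arrays. Of the genes higher at 12 h (red), 87.2% had a higher mean at 8 h than at 2 h, against 25.2% of those lower at 12 h (blue).

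A first group of genes was low at 4 h and higher again at 12 h. The comparisons of 4 h and of 12 h with 0 h share the control arrays and each shares a group with the comparison of 12 h and 4 h, so their values stand side by side with no test between them. Nabp1, a single-stranded DNA-binding protein of the DNA damage response, had 8.58, 8.60 and 8.60 at 12 h, against 5.67, 7.22 and 6.79 at 4 h. The 12 h arrays were alike while the 4 h arrays spread, and the difference was 2.03 ± 0.23 (SE; limma adjusted p = 6.47e-06). Against 0 h it was -1.93 at 4 h and 0.10 at 12 h, and the 95% interval at 12 h was -0.39 to 0.59. Between 8 h and 2 h it differed by 1.92 (limma adjusted p = 0.00037). Chst1 was at -1.13 at 4 h and 0.53 at 12 h, Traf1 at -0.77 at 4 h and 0.88 at 12 h, and Pdk1, a kinase that restrains pyruvate dehydrogenase, at -0.59 at 4 h and 0.68 at 12 h, all relative to 0 h.

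Other genes of this kind came back in part. Ppp1r10, a phosphatase subunit that acts in transcription termination, had 7.57, 7.78 and 7.27 at 12 h, against 6.05, 6.75 and 6.22 at 4 h. It rose by 1.20 ± 0.16 (SE; limma adjusted p = 3.44e-05) and its difference from 0 h was -2.36 at 4 h and -1.16 at 12 h. Runx1, a transcription factor best known from blood formation, read 7.24, 6.81 and 6.30 at 12 h, against 5.77, 5.24 and 5.90 at 4 h. Its rise was 1.15 ± 0.25 (SE; limma adjusted p = 0.00172), and its difference from 0 h was -1.66 at 4 h and -0.51 at 12 h (95% interval -1.02 to 0.01). Tbcc, a tubulin-folding cofactor, rose by 0.85, Nfkbie, an inhibitor of NF-kB, by 0.83, and Hexim1, which holds the elongation kinase P-TEFb inactive, by 0.71. With the probe sets of each gene averaged Runx1 rose by 0.34, Tbcc by 0.48 and Hexim1 by 0.22, the last not past the test. Fam43a rose by 0.57 (limma adjusted p = 0.0186), with arrays at 5.89, 6.08 and 5.81 at 12 h, against 4.78, 5.76 and 5.55 at 4 h.

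In several of these genes 4 h replicate 1 was the lowest array. Without it Nfkbie rose by 0.52, Hexim1 by 0.46 and Fam43a by 0.27, the last no longer past the test. Fam43a also did not pass without 12 h replicate 2 (0.49), and neither it nor Nfkbie passed in a fit of the 6 arrays alone. Hbegf, a ligand of the EGF receptor, was listed with these genes in earlier results of the same data and did not pass (0.07 ± 0.36, SE). Its arrays overlapped, at 8.89, 8.84 and 7.93 at 12 h, against 9.20, 7.98 and 8.27 at 4 h. A second Hbegf probe set, at 8.19 at 12 h and 8.57 at 4 h, fell by 0.38 ± 0.08 (SE; limma adjusted p = 0.00306 in the fit of each probe set on its own). That list of 6 genes (Ppp1r10, Nabp1, Runx1, Tbcc, Fam43a and Hbegf) was chosen on these samples, so its 5 rises are a description. A list of 6 late risers from the same source (Pxylp1, Afap1l2, Apol9a, Hsd3b7, Senp8 and Ccdc28b) had 6 rises, and Ccdc28b (1.37) was at -0.08 and did not pass without _x_ or _s_ probe sets.

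A second group was higher at 4 h than at 0 h and at 12 h. Relative to 0 h, Rbm14 was at 1.04 at 4 h and -0.59 at 12 h, and Rbm12, an RNA-binding protein, was at 0.74 at 4 h and -0.28 at 12 h. Rbm12 had 9.02, 8.98 and 8.73 at 12 h, against 9.87, 9.93 and 10.00 at 4 h. Rbm4 was 1.18 above 0 h at 4 h and at -0.29 at 12 h (95% interval -0.54 to -0.03; limma adjusted p = 0.1 against 0 h). Rbm15, an adaptor of the RNA methylation complex, kept part of its rise, at 1.41 above 0 h at 4 h and 0.43 above at 12 h, with arrays at 8.64, 8.77 and 8.38 at 12 h, against 9.65, 9.46 and 9.61 at 4 h. Clk3 was at 0.77 at 4 h and -0.30 at 12 h relative to 0 h.

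Outside RNA processing, Oga, the enzyme that removes O-linked N-acetylglucosamine from proteins, had 8.79, 8.61 and 8.22 at 12 h, against 9.44, 9.35 and 9.44 at 4 h. It fell by 0.87 ± 0.12 (SE; limma adjusted p = 3.07e-05) to within 0.15 of its 0 h mean (95% interval -0.10 to 0.40), and its mean was 1.64 higher at 24 h than at 12 h. The other 3 Oga probe sets fell by 1.52, 1.17 and 0.37 (limma, each probe set on its own), and each ended below its 0 h mean, with 7.82, 7.02 and 5.43 at 12 h, against 8.56, 7.57 and 5.68 at 0 h. Zc3h12c, a CCCH zinc finger gene, fell by 1.05 (0.62 with its probe sets averaged) and Klf16, a GC-box-binding factor, by 0.91. Of 5 zinc finger and BTB factors listed for the early response, 4 fell (80%, against 9.22% of all genes) and 0 rose. With all probe sets averaged 2 fell. Fnip1 and Fnip2, partners of folliculin in nutrient signalling, fell by 0.63 and 0.57. The Fnip1 difference was -0.47 with its probe sets averaged and -0.33 without _x_ or _s_ probe sets, neither past the test, and Fnip2 did not pass (-0.35) without the arrays of lowest interquartile range.

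**Figure D3:**
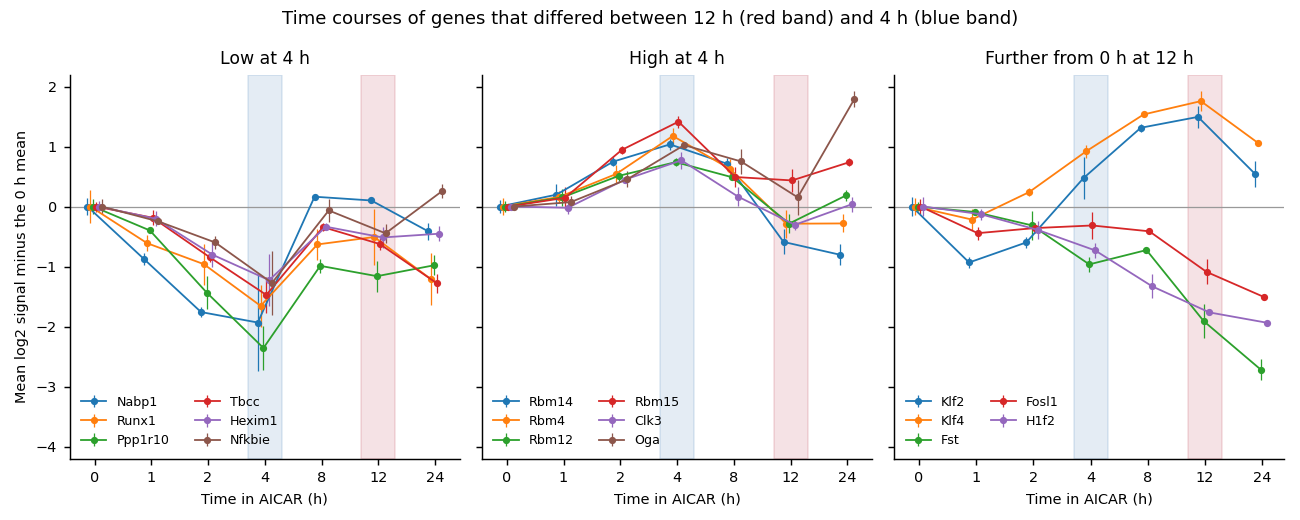
Mean log2 signal minus the 0 h mean over 0 to 24 h in AICAR; error bars are the SD of 3 arrays (2 at 8 h), and bands mark 4 h (blue) and 12 h (red). Means on the left are lower at 4 h than at 0 and 12 h, means in the middle are higher at 4 h than at 0 and 12 h, and means on the right lie further from 0 h at 12 h than at 4 h.

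A further group was further from 0 h at 12 h than at 4 h. The Kruppel-like factor gene Klf2, a transcription factor known for its place downstream of MEK5 and ERK5 in endothelium, had 8.62, 8.73 and 8.38 at 12 h, against 7.17, 7.86 and 7.65 at 4 h. Klf4, its close relative and a reprogramming factor, read 10.58, 10.67 and 10.35 at 12 h, against 9.58, 9.79 and 9.74 at 4 h. They rose by 1.02 ± 0.15 and 0.83 ± 0.10 (SE; limma adjusted p = 4.9e-05 and 7.17e-06). Both genes also differed between 8 h and 2 h, by 1.91 and 1.29. Txnip, an arrestin-domain inhibitor of glucose uptake and a target of MondoA, rose by 0.69 (0.36 with its probe sets averaged) and its relative Arrdc4 by 0.66.

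Falls went further in other genes. Fst, the activin antagonist follistatin, was at -0.96 at 4 h and -1.91 at 12 h relative to 0 h, with arrays at 5.48, 6.05 and 5.76 at 12 h, against 6.76, 6.57 and 6.80 at 4 h. With its probe sets averaged the fall of Fst between 4 h and 12 h was 0.56, against 0.95 with the brightest. H1f2, a linker histone gene, was at -0.73 at 4 h and -1.76 at 12 h relative to 0 h. The RGS gene Rgs16, which quenches G-protein signalling, fell by 0.96 ± 0.20 (SE; limma adjusted p = 0.00117), with a mean of 6.08 ± 0.088 at 12 h, against 7.04 ± 0.59 at 4 h (SD, n = 3 each), or -0.63 with its probe sets averaged. Of 12 histone genes tested, 3 fell (25%, against 9.22% of all genes) and 0 rose (against 18.3% of all genes). Of 12 RGS genes 1 fell (8.33%) and 3 rose (25%), among them Rgs19 (0.80), which is near the shares of all genes. The 3 RGS rises were 1 without 12 h replicate 1 or 12 h replicate 2.

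The shares of all genes that rose (18.3%) and fell (9.22%) are the background for every list count that follows. In the RNA-processing and transcription lists more members fell than rose. Of 23 FET and Rbm RNA-binding genes, 10 fell (43.5%, against 9.22% of all genes) and 2 rose (8.70%, against 18.3%), with a median of -0.23. Of 28 SR proteins, Clk kinases and hnRNPs, 9 fell and 1 rose. Clk4 (-0.56), Hnrnph1 (-0.54) and Luc7l3 (-0.48) were among them, Luc7l3 being -0.29 and not past the test with its probe sets averaged. Of 25 genes of RNA polymerase II pausing and termination, 11 fell and 4 rose, and the 4 included Ppp1r10 and Hexim1. Without 12 h replicate 3, alone or with 4 h replicate 2 also left out, 7 of the 25 fell, and 4 of the 23 FET and Rbm genes rose. Of 8 snoRNA host genes 3 fell and 0 rose, among them Gas5, a growth arrest transcript, by 0.99 ± 0.19 (SE; limma adjusted p = 0.000796). Gas5 read 8.29, 8.13 and 8.50 at 12 h, against 9.33, 8.94 and 9.62 at 4 h.

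Of 28 ribosome biogenesis genes tested, 19 fell (67.9%, against 9.22% of all genes) and 0 rose, with a median of -0.29, and the number that fell was 15 to 19 when each of the 6 arrays was left out in turn. Wdr43, of the small-subunit processome, had 9.72, 10.03 and 10.00 at 12 h, against 10.60, 10.77 and 10.80 at 4 h. Ddx21, a nucleolar helicase, had 10.10, 10.48 and 10.47 at 12 h, against 11.15, 11.17 and 11.14 at 4 h. They fell by 0.81 ± 0.09 and 0.80 ± 0.09 (SE; limma adjusted p = 6.62e-06 and 3.98e-06; 0.50 for Ddx21 with its probe sets averaged) and stood 0.01 and 0.19 above 0 h at 4 h. Rrs1, of large-subunit assembly, and Nop56, of box C/D snoRNPs, fell by 0.72 and 0.59. Of cytosolic ribosomal protein genes, 0 of 21 passed the limma test in either direction and 0 had an unadjusted p under 0.05, and their differences lay between -0.09 and 0.01. Of 16 aminoacyl-tRNA synthetase genes, 5 fell and 0 rose, and 2 fell without the arrays of lowest interquartile range.

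Of 30 genes of G2/M and mitosis, 19 fell (63.3%, against 9.22% of all genes) and 1 rose (3.3%), with a median of -0.34, and 16 to 19 fell when each array was left out in turn. Aurka, a spindle kinase, had 8.89, 9.07 and 9.15 at 12 h, against 9.91, 9.90 and 9.94 at 4 h. Plk1, a mitotic kinase, had 8.58, 8.76 and 8.66 at 12 h, against 9.26, 9.42 and 9.27 at 4 h. The groups were separate in both, and the falls were 0.88 ± 0.09 and 0.65 ± 0.07 (SE; limma adjusted p = 1.43e-06 and 2.63e-06). Cenpe, a kinetochore motor, fell by 0.72 and Cenpf by 0.58, but with their probe sets averaged both (-0.24 and -0.26) did not pass.

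Replication genes were mixed. Of 31 genes of DNA replication and S phase, 8 fell, led by the licensing factor gene Cdc6 (-0.69), and 4 rose, led by the clamp loader subunit gene Rfc4 (0.56). Cdc6 had 9.37, 9.51 and 9.35 at 12 h, against 10.10, 10.10 and 10.12 at 4 h. The number that fell was 5 without 4 h replicate 2 or without the arrays of lowest interquartile range, and the number that rose was 2 without 4 h replicate 1 or 12 h replicate 1. Of 15 genes of D cyclins, CDK inhibitors and the RB family, 2 rose (Rbl2, 0.74, and Rbl1, 0.44) and 1 fell (Cdkn2b, -0.28). Rbl2 did not pass without 4 h replicate 2, 4 h replicate 3, 12 h replicate 1 or 12 h replicate 2, Rbl1 did not pass with its probe sets averaged (0.16), and Cdkn2b did not pass after median centring or without the arrays of lowest interquartile range.

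**Figure D4:**
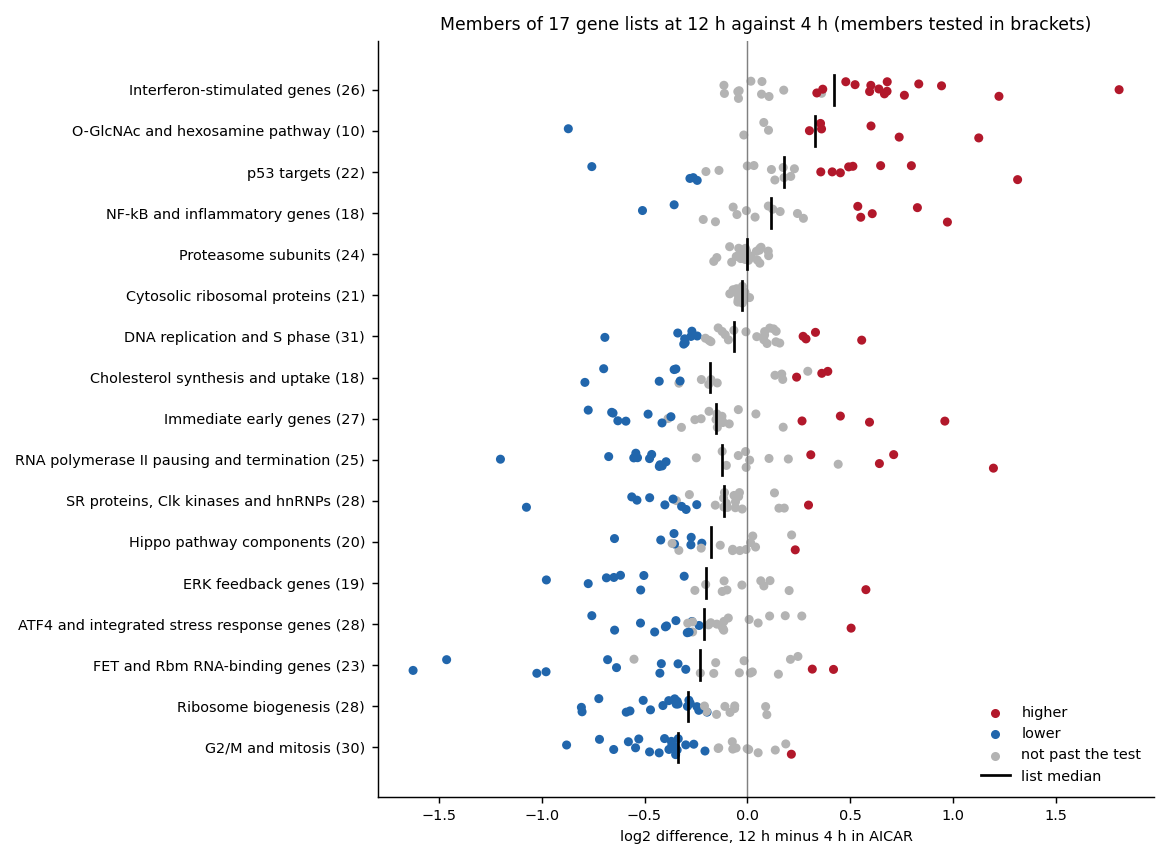
Each point is a tested member of a gene list, placed by its log2 difference of 12 h minus 4 h (horizontal axis), red for higher, blue for lower and grey for not past the test; black bars are list medians. Members of the interferon-stimulated list lie to the right (15 of 26 higher, 0 lower) and those of ribosome biogenesis and G2/M to the left (19 lower in each).

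Of 26 interferon-stimulated genes tested, 15 rose (57.7%, against 18.3% of all genes), 11 did not pass the test and 0 fell, with a median of 0.42, and 14 to 15 rose when each array was left out in turn. Apol9a had 7.43, 7.33 and 6.71 at 12 h, against 5.35, 5.25 and 5.43 at 4 h. Gbp2, a guanylate-binding GTPase, had 6.86, 6.79 and 6.29 at 12 h, against 5.60, 5.22 and 5.45 at 4 h. The groups were separate in both genes, and the rises were 1.81 ± 0.18 and 1.22 ± 0.17 (SE; limma adjusted p = 1.44e-06 and 3.71e-05). Xaf1, an XIAP-associated factor, rose by 0.94 and Ifih1, the cytosolic RNA sensor MDA5, by 0.83. Their means were 2.93 and 2.44 higher again at 24 h than at 12 h. Of 14 genes for type I interferons, sensors and receptors, 4 rose and 2 fell (4 without 4 h replicate 1). The risers were the endosomal RNA sensor gene Tlr3 (1.20), the signalling adaptor gene Mavs (0.66), the interferon regulatory factor gene Irf3 (0.61) and the receptor gene Ifnar1 (0.59). Xaf1 (0.45) and Irf3 (0.40) rose less with their probe sets averaged, and Tlr3 (0.68) without _x_ or _s_ probe sets.

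Of 18 NF-kB and inflammatory genes, 5 were higher (27.8%, against 18.3% of all genes) and 2 lower (11.1%, against 9.22%). Only 1 was lower without any single array other than 4 h replicate 2. Ccl7, a monocyte chemokine, had 6.11, 6.09 and 6.26 at 12 h, against 5.01, 5.42 and 5.12 at 4 h, a rise of 0.97 ± 0.11 (SE; limma adjusted p = 7.69e-06). Birc3, an inhibitor of apoptosis, rose by 0.61 (0.32 with its probe sets averaged), and Ccl2 by 0.55, or by 0.27 and not past the test without 4 h replicate 1. Markers of other cells that moved with these genes were few. Of 10 macrophage markers 5 were below background, among them Ptprc, Itgam and Lyz2. Cd14 rose by 0.52 and Cd68, below background at 4 h, was at least 1.23-fold higher at 12 h. Csf1r, Tyrobp and Fcer1g had lower means at 12 h (5.52, 5.44 and 5.09) than at 4 h (5.71, 5.58 and 5.24) and did not pass. The summed linear signal of the 10 markers was 348 to 379 at 12 h and 314 to 352 at 4 h. Of 9 epithelial markers 4 were below background, and their sum of 1420 to 1439 at 12 h, against 1008 to 1090 at 4 h, was mostly Krt19, which rose by 0.60. Epcam, Krt5 and Cldn4 had lower means at 12 h (6.30, 5.59 and 5.08) than at 4 h (6.51, 5.72 and 5.17). Krt18 had a higher mean (5.48 at 12 h, against 5.31 at 4 h), and none of these passed. The part of these markers in the results was not tested.

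Of 19 ERK feedback genes, 8 fell (42.1%, against 9.22% of all genes) and 1 rose, with a median of -0.20. Spry4, an inhibitor of receptor tyrosine kinase signalling, had 5.27, 5.38 and 4.93 at 12 h, against 5.96, 6.28 and 6.28 at 4 h, a fall of 0.98 ± 0.18 (SE; limma adjusted p = 0.00052). With its probe sets averaged Spry4 fell by 0.37. Spry1 fell by 0.69 and Fosl1, an AP-1 subunit, by 0.77. The number that fell was 5 without the arrays of lowest interquartile range and 5 in a fit of the 6 arrays alone. Of 27 immediate early genes, 8 fell, Fosl1, Maff (-0.66) and Myc (-0.65) by most, and 4 rose, Nr4a2, an orphan nuclear receptor, by most (0.96, or 0.28 with its probe sets averaged). Myc read 8.99, 9.18 and 9.01 at 12 h, against 9.47, 9.94 and 9.74 at 4 h. The 4 rises were 2 without 4 h replicate 1, 12 h replicate 1 or 12 h replicate 2. Of 10 genes for EGF receptor ligands and receptors, Erbb3 rose by 1.33 ± 0.13 (SE), with 7.61, 7.36 and 6.99 at 12 h, against 6.02, 5.99 and 5.94 at 4 h, and Tgfa by 0.61, while 3 fell. The means of all probe sets gave 0.66 for Erbb3 and 0.13 for Tgfa, the second not past the test, and the 3 falls were 1 without 4 h replicate 2, 12 h replicate 1 or 12 h replicate 3 and 0 after median centring or without the arrays of lowest interquartile range.

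Of 20 Hippo pathway components, 7 fell (35%, against 9.22% of all genes) and 1 rose, with a median of -0.18. The kinase gene Lats2 had 7.83, 7.64 and 7.33 at 12 h, against 8.31, 8.16 and 8.26 at 4 h, a fall of 0.65 ± 0.14 (SE; limma adjusted p = 0.00215). Of its other 3 probe sets, 2 fell by 1.72 and 1.59 and the last (-0.21) did not pass (limma, each probe set on its own). The first probe set had means of 8.21 at 0 h, 8.24 at 4 h and 7.60 at 12 h. Those 2 had 6.30 and 5.19 at 0 h, 8.41 and 6.82 at 4 h, and 6.69 and 5.23 at 12 h. The probe sets thus differ in their course from 0 h. Lats1, the relative of Lats2, fell by 0.22 ± 0.07 (SE). It did not pass without 4 h replicate 2, 4 h replicate 3, 12 h replicate 1 or 12 h replicate 3. The number of components that fell was 3 without the arrays of lowest interquartile range and 4 after median centring. Of 22 YAP and TAZ targets 5 fell (3 without the arrays of lowest interquartile range), among them Amotl2 (-0.45), and 2 rose (1 without 4 h replicate 2, 4 h replicate 3, 12 h replicate 1 or 12 h replicate 2). In the 17 targets of TGF-beta and BMP there were 6 falls and 2 rises, the number that fell being 1 after median centring or without the arrays of lowest interquartile range 2 without 4 h replicate 2, 4 h replicate 3 or 12 h replicate 3 and 3 without 12 h replicate 1. The matrix protein gene Tgfbi rose in that list, by 1.22 ± 0.15 (SE; limma adjusted p = 1.26e-05), or by 0.50 without _x_ or _s_ probe sets.

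Of 28 stress-response genes of the ATF4 pathway, which acts when translation initiation is restrained, 11 fell (39.3%, against 9.22% of all genes) and 1 rose, with a median of -0.21. Sesn2, a leucine sensor, had 6.32, 6.28 and 6.18 at 12 h, against 7.19, 6.96 and 6.89 at 4 h, and fell by 0.76 ± 0.09 (SE; limma adjusted p = 7.15e-06), or by 0.50 with its probe sets averaged. Herpud1, of endoplasmic reticulum protein degradation, fell by 0.65 and Ppp1r15a, which reverses the translation block, by 0.52, while Nupr1 rose by 0.50. The number that fell was 6 without 4 h replicate 2 or without the arrays of lowest interquartile range, and 7 without 4 h replicate 3 or 12 h replicate 1. In 22 p53 targets, 8 rose and 4 fell. Tnfrsf10b, a death receptor, had 7.48, 7.03 and 6.71 at 12 h, against 5.82, 5.73 and 5.72 at 4 h, a rise of 1.31 ± 0.17 (SE; limma adjusted p = 2.31e-05), and Ddb2, of nucleotide excision repair, rose by 0.80. Without 12 h replicate 1, or without the arrays of lowest interquartile range, 5 of the 22 rose, and 2 fell without the arrays of lowest interquartile range or without 4 h replicate 3. Of 13 BCL2 family genes, 3 rose (Bid, Pmaip1 and Bad by 0.70, 0.51 and 0.48) and Bcl2l1 fell by 0.40 (2 fell without 12 h replicate 1 or 12 h replicate 2).

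In the O-GlcNAc and hexosamine pathway, 6 of 10 genes rose and Oga fell. Nagk, which salvages N-acetylglucosamine, had 8.29, 8.26 and 8.25 at 12 h, against 7.20, 7.06 and 7.17 at 4 h, a rise of 1.13 ± 0.06 (SE; limma adjusted p = 4.01e-09), or 0.59 with its probe sets averaged. Gnpda1, a glucosamine-6-phosphate deaminase, rose by 0.74 and Ogt, the transferase opposed to Oga, by 0.60. The Ogt difference was 0.14 and did not pass with its probe sets averaged, where 3 of the 10 genes rose. In the folliculin and nutrient-sensing list, 7 of 17 fell and 3 rose, Sesn3 among them by 0.65, and 3 fell without the arrays of lowest interquartile range, when 3 of the 10 O-GlcNAc and hexosamine genes rose. Of 17 clock genes 6 fell, Nr1d2 (-0.81) and Tef (-0.73) by most, and 4 rose, among them Arntl, a core activator, by 0.69. With their probe sets averaged Arntl rose by 0.33 and Nr1d2 fell by 0.48. The 4 rises were 1 without 12 h replicate 1 and 2 without any of the other arrays but 12 h replicate 3.

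Sterol and lipid genes were mixed. Of 18 genes of cholesterol synthesis and uptake, 6 fell, led by Insig1 (-0.79), the sterol-regulated retention protein of SREBP, and Stard4 (-0.70; -0.40 and not past the test with its probe sets averaged), a sterol carrier, and 3 rose. Insig1 had 8.65, 8.91 and 8.43 at 12 h, against 9.55, 9.38 and 9.42 at 4 h. Of 16 genes of fatty acid and lipid synthesis 3 fell, Fasn by most (-0.72), and 3 rose (1 without 12 h replicate 1). In glucose metabolism, 5 of 21 genes rose (23.8%, against 18.3% of all genes) and 2 fell (9.52%, against 9.22%), Pdk1 leading with a rise of 1.27 ± 0.17 (SE; limma adjusted p = 2.84e-05), or of 0.66 with its probe sets averaged. The 5 rises were 3 without 12 h replicate 1, and the 2 falls were 0 without 4 h replicate 1 and 1 without any other array. Of 8 MondoA targets and arrestin-domain genes 3 rose and 0 fell. Among the risers, Arrdc3 (0.42) had means below background at both times (4.60 at 12 h and 4.17 at 4 h). It did not pass without 4 h replicate 1, 12 h replicate 1 or 12 h replicate 2. Of 14 hypoxia-response genes 3 rose, Ndrg1 by most (0.83), and 0 fell. The hypoxia rises were 1 without 4 h replicate 2 or 12 h replicate 1, and 1 fell without 4 h replicate 1. Of 19 NRF2 targets 2 rose (1 without 4 h replicate 2) and 3 fell, among which Srxn1 rose by 1.22 (0.47 with its probe sets averaged) and Hmox1 fell by 0.67.

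Of 21 purine genes, 3 rose, Ampd3 by most, and 4 fell (2 without 4 h replicate 2, 12 h replicate 1 or 12 h replicate 2), of 20 pyrimidine and deoxynucleotide genes 6 rose and 3 fell (1 without the arrays of lowest interquartile range), and of 4 adenosine transport genes 0 passed the limma test and 1 had an unadjusted p under 0.05. Tk2, a mitochondrial thymidine kinase, rose by 0.67. Among the AMPK subunits and upstream kinases, 2 of 11 rose and 2 fell, the gamma subunit gene Prkag2 rising by 0.81 ± 0.14 (SE; limma adjusted p = 0.000296), with 8.29, 8.02 and 7.73 at 12 h, against 7.33, 7.05 and 7.25 at 4 h. The AMPK list's rises were 1 without 4 h replicate 2, 12 h replicate 1 or 12 h replicate 2. Its falls were 0 without 4 h replicate 1 or after median centring, and 1 without 4 h replicate 3, 12 h replicate 2 or 12 h replicate 3. The probe set for Prkaa1 did not pass, with 8.05, 8.22 and 7.92 at 12 h, against 7.94, 8.13 and 8.14 at 4 h. Prkaa2 did not pass either (0.49 ± 0.20, SE; limma adjusted p = 0.0861), with 12 h replicate 1 at 6.98 and the other arrays at both times between 5.67 and 5.99. A second Prkaa2 probe set passed in the fit of each probe set on its own (limma adjusted p = 0.000236), with means of 5.50 at 12 h and 4.80, below background, at 4 h. Where these probes lie relative to the deleted parts is not known here, and none of these values checks the knockout.

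Of 29 extracellular matrix genes, 5 rose (17.2%, against 18.3% of all genes) and 4 fell (13.8%, against 9.22%). Timp3, an inhibitor of metalloproteinases, had 10.49, 10.50 and 10.40 at 12 h, against 9.54, 9.48 and 9.40 at 4 h, a rise of 0.99 ± 0.08 (SE; limma adjusted p = 3.34e-07), and was 1.24 lower again at 24 h than at 12 h. The number that rose was 3 without 4 h replicate 2, 4 h replicate 3, 12 h replicate 1 or 12 h replicate 2. Of 18 actin cytoskeleton and contractile genes, 4 fell, among them Myl9 (-0.71) and Acta2 (-0.58, or -0.33 with its probe sets averaged), and 1 rose. The falls were 2 without 4 h replicate 2, without 12 h replicate 1 or without the arrays of lowest interquartile range, and 0 rose without 4 h replicate 1, 4 h replicate 3, 12 h replicate 1 or 12 h replicate 2. Of 7 caveolar genes 4 rose and Cavin2 fell by 0.53. With the probe sets of each gene averaged 2 of the 7 rose, and Cavin2 was at -0.48 and did not pass.

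In some lists few members passed the test. Of 24 proteasome subunit genes, 0 passed the limma test in either direction and 1 had an unadjusted p under 0.05, with differences between -0.16 and 0.10. Of 28 genes listed for the respiratory chain 1 rose and 1 fell. The fall was that of Nrf1 (-0.59), which encodes a transcription factor and not a subunit of the chain. Of 20 endoplasmic reticulum chaperone genes 2 rose and 1 fell, and of 12 heat shock genes 1 rose and 2 fell. Without the arrays of lowest interquartile range there were 0 respiratory chain rises, 0 chaperone falls and 1 heat shock fall. Leaving out single arrays also moved them: there were 0 respiratory chain rises without 4 h replicate 2 or 12 h replicate 1, 0 chaperone falls without 4 h replicate 2, 4 h replicate 3 or 12 h replicate 1, and 1 heat shock fall without 4 h replicate 1, 4 h replicate 3 or 12 h replicate 2. Some lists had members on both sides. In autophagy and lysosome, 5 of 29 rose (17.2%, against 18.3% of all genes) and 4 fell (13.8%, against 9.22%). Of 18 amino acid transporters 4 rose (22.2%) and 3 fell (16.7%), the rises being 1 without 4 h replicate 1 or 12 h replicate 2. Of 11 Kruppel-like factors 2 rose (18.2%) and 4 fell (36.4%). The Kruppel-like falls were 2 after median centring and without 4 h replicate 1, 4 h replicate 3, 12 h replicate 1, 12 h replicate 3 or the arrays of lowest interquartile range. Of 15 folate and serine one-carbon genes 3 fell (6 without 4 h replicate 1) and 0 rose, and of 13 AMPK-related kinases Sik2 alone passed, with a rise of 0.57.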

How the data were processed

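Total RNA of 20 samples was measured on Affymetrix MG-430 PM array strips, and the 6 arrays at 12 h and 4 h in AICAR form the comparison. The deposited values were taken as log2 signal from their range. How the authors corrected background and normalized is not given in the sources. The members and all gene lists were chosen with earlier results of these data known. Of 28898 probe sets with 1 symbol, the brightest per gene was kept, and genes whose highest group mean was above 4.807 (the 40th percentile) were tested, which kept 12944 of 17097 genes. One limma 3.58.1 model (R 4.3.3) over all 20 arrays gave each difference, with Benjamini-Hochberg adjustment over all tested genes and a threshold of 0.05. On simulated data of 12944 genes for 12 h against 4 h, 99 of 100 changes of log2 1 and 81 of 100 of log2 0.5 were recovered, with 10 false calls among 190. The simulated noise was independent between genes and of equal spread in all arrays, and few genes changed. The real arrays differ in these points, so these rates need not hold for them. The number of arrays limits the precision. Genes named are a selection of the 15 largest rises and 15 largest falls with separate groups (clone-named loci skipped), up to 4 called members per list by size (2 where none was called), and Prkaa1, Prkaa2, Lats1, Lats2, Txnip and the 2 lists from earlier results. Alternatives covered normalization, filters, probe-set choice, array weights, a replicate block, the 6 arrays alone and each array left out. Leaving out the arrays of lowest interquartile range was chosen after seeing the data.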

Additional observations from a re-analysis of the deposited data

How the results depend on the processing

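A change of sign was counted only for genes past the test in the main fit or in the alternative. Of the values for named genes under the alternatives, 3914 kept their call or lack of one. Another 249 lost the call, 15 gained it and 4 changed sign. Those 4 were Klf6 (0.013) and Strada (-0.044) with the mean of all probe sets, and Srf (-0.16) and Ccdc28b (-0.075) without _x_ or _s_ probe sets. With array weights, whose estimation gave a convergence warning, 7086 genes differed, 3933 higher and 3153 lower at 12 h. The number lower was 744 after median centring, 780 in the 6 arrays alone, 758 at an adjusted p under 0.01 and 1801 with each probe set on its own. The number differing at least 2-fold was 99 with the mean of all probe sets, 249 with each probe set on its own and 252 without the arrays of lowest interquartile range. When each array was left out in turn, 2676 to 3953 genes differed, 1741 to 2676 higher and 926 to 1277 lower, and 142 to 249 differed at least 2-fold, the most without 12 h replicate 3. Between 12 h and 4 h arrays of the same replicate number, deviations had correlations of 0.41, -0.36 and 0.18. Replicate 3 had the lowest interquartile range at 0, 1, 2, 12 and 24 h, and replicate 2 at 4 h. The main fit took no account of the replicate number. With a replicate block 4533 genes differed, 2904 higher and 1629 lower, 165 of all at least 2-fold. The causes were not tested. Among list counts, 1873 stayed within 1.5 times their value and 369 did not. Signal near the background level of 5.08 limits what can be said of dim genes.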

Other observations

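Probe sets of the same gene did not always move together. Of 4876 genes with several tested probe sets, 718 had at least 2 that passed the limma test on the 20460 probe sets, and in 50 of these the probe sets passed in opposite directions. Of the probe sets on the array, 15692 were not listed in the annotation table and were not analysed here.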
